A study of Mus musculus with 104 samples.

Results

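Antibodies against 2 ligands of the Notch pathway, DLL1 and DLL4, were given to mice whose resident liver macrophages had been killed, and RNA was sequenced from the macrophages that refilled the niche. The experiment comprised the libraries titled for this antibody treatment (4) and for its control (2), 6 of the 104 mouse libraries of the series, and every gene was compared between the 2 groups. All 6 held repopulating liver macrophages taken 24 h after diphtheria toxin. The design text places these cells in Clec4f-Cre/DTR mice, in which Cre driven by the Kupffer cell gene Clec4f makes resident Kupffer cells sensitive to the toxin, while the sample labels give the strain as C57BL/6J. Both groups therefore share the killing of the resident cells and the column headers describe all 6 as fasted males. Both antibodies were given together, so blocking DLL1 and blocking DLL4 cannot be told apart here. A treatment label of the 2 control libraries also carries the antibodies, and the title and the column header, which call them controls, were followed. Antibody dose, schedule and isotype were not given in the labels, nor whether the libraries came from separate animals. The p-values therefore measure only a spread between libraries, which may be technical. That spread was pooled over 11 libraries, these 6 and the 5 of a second experiment in female mice, given further on.

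Notch receptors are single-pass membrane proteins that are cut when a ligand on a neighbouring cell, such as DLL1, DLL4 or Jagged1, pulls on them. An ADAM protease makes the first cut and the gamma-secretase complex the next, which frees the receptor's intracellular domain to enter the nucleus, bind the DNA-binding protein RBPJ and recruit Mastermind coactivators. In the liver, DLL4 is made by sinusoidal endothelial cells, and Notch input to incoming monocytes is known to help start the Kupffer cell program together with TGF-beta family signals and liver X receptor ligands. Notch2 signalling is also known for its part in the making of Ly6C-low nonclassical monocytes.

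The 6 libraries held 13929742 to 15751517 reads over genes and 14550 to 14964 genes above 0. Values are TPM as deposited, the unit in which transcript levels are scaled for gene length and library size. Of 9885 genes tested, 205 were called (2.07%), 67 of them higher with antibodies (0.678%) and 138 lower (1.40%), where a call needed an adjusted p below 0.05 in limma and at least a 2-fold change. Without the fold requirement, 658 genes were higher (6.66%) and 606 lower (6.13%). With 2 controls a lack of overlap alone is common, since every antibody library lay above both controls in 1609 genes (16.3%) and below both in 1638 (16.6%). The defining macrophage genes Csf1r, the receptor for colony stimulating factor 1, and Cd68, a lysosomal protein, stood at 1217 to 1407 TPM and at 1112 to 1490 TPM over the 6 libraries. The mature Kupffer cell genes Clec4f, Vsig4, Timd4 and Cd207 were all at or below 1.65 TPM in every library, so at 24 h the cells lacked the defining markers of resident Kupffer cells. In bulk RNA, fewer cells of a type and less RNA per cell cannot be told apart, which holds for every level below.

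The largest falls outside genes of hepatocytes, which are given further on, included Tspan13, Slc12a2, Itgax and Ace. Tspan13, a tetraspanin membrane protein, read 78.7 and 82.7 TPM in the controls and 9.62, 17.4, 8.33 and 14.6 TPM with antibodies. Every antibody library was far under both controls, and the log2 difference was -2.65 ± 0.27 (SE; adjusted p = 1.2e-04). Itgax, which encodes the CD11c integrin chain, fell from 134 and 131 TPM to 16.8, 34.8, 15.6 and 31.1 TPM. The groups did not overlap and the log2 difference was -2.46 ± 0.27 (adjusted p = 1.9e-04). Ace, angiotensin-converting enzyme, fell from 203 and 170 TPM to 37.8, 78.3, 37.5 and 45.1 TPM, a log2 difference of -1.95 ± 0.24 (adjusted p = 4.1e-04). Antibody replicate 2 kept the most Ace and was still far under both controls. Treml4, a receptor that binds dying cells, fell from 290 and 278 TPM to 80.4, 123, 84.5 and 118 TPM, by 1.50 ± 0.15 on the log2 scale (adjusted p = 1.4e-04). Slc12a2, a sodium, potassium and chloride cotransporter, fell from 29.5 and 21.2 TPM to between 2.15 and 5.24 TPM, and Ddit4, an inhibitor of mTORC1 induced by stress, from 14.7 and 21.1 TPM to between 2.25 and 5.52 TPM. The Ddit4 call was lost without control replicate 2 (adjusted p = 0.070). Cd1d1, which presents lipids to NKT cells and was picked here after its values were seen, fell from 54.2 and 53.3 TPM to between 11.7 and 16.0 TPM, with a log2 difference of -1.94.

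Among transcription factors, Spic, an ETS factor of red pulp and liver macrophages that supports iron recycling, stood at 146 and 135 TPM in the controls and at 34.7, 58.1, 44.2 and 43.4 TPM with antibodies. Every antibody library was well under both controls, and the log2 difference was -1.64 ± 0.21 (adjusted p = 6.4e-04). Nr4a1, the nuclear receptor on which nonclassical monocytes depend, stood at 99.6 and 92.4 TPM against 34.7, 58.3, 41.8 and 50.7 TPM, a log2 difference of -1.06 ± 0.17 (adjusted p = 0.0021). The groups were again apart, and without antibody replicate 1 the difference was -0.93, short of the fold. These 2 were the called members among 25 tested macrophage transcription factors, where 1.40% of all genes were called lower, and 6 members were lower and 3 higher at any fold. The median log2 difference was -0.23 against -0.01 over all genes tested. Mitf, a lysosome regulator, was higher without reaching the fold, at 11.9 and 10.6 TPM against 18.8, 17.7, 21.2 and 20.7 TPM (log2 0.75 ± 0.09, adjusted p = 4.5e-04). Batf3, a dendritic cell factor, was called lower at -1.03 (adjusted p = 0.014), a call lost without either control (adjusted p = 0.060 and 0.074) or, by the fold, without antibody replicate 2. Of the other 2 dendritic cell markers tested, Clec10a, a lectin also found on macrophages, was called higher (1.04, adjusted p = 9.1e-04; 0.88 without control replicate 1), and Flt3 was at 0.08.

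The promoters of 5 genes that fell with antibodies and rose with DLL4 in cultured monocytes are shown because they cover several roles, an integrin, a receptor, the 2 transcription factors just described and a cytokine, Il1b, whose values follow further on. Each is the 250 bases before the RefSeq start of the gene on GRCm38.p6, read 5′ to 3′ along the gene, and capitals mark the 6-base core of the RBPJ motif, TGGGAA, here met on the other strand as TTCCCA.
Itgax, chr7:128129300-128129549, plus strand: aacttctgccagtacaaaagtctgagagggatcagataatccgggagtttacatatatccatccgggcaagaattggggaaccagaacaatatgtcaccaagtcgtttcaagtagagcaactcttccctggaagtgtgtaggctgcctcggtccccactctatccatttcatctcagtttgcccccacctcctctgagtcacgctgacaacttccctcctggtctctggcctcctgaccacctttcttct
Treml4, chr17:48264045-48264294, plus strand: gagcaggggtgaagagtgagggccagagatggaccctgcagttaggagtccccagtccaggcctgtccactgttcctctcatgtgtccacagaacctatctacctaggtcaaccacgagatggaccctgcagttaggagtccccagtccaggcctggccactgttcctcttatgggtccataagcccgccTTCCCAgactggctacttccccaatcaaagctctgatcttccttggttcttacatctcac
Il1b, chr2:129371140-129371389, minus strand: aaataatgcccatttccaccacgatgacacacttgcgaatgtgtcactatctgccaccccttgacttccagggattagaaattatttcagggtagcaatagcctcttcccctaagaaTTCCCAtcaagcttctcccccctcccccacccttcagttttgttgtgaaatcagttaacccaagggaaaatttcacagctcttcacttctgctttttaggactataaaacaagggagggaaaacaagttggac
Spic, chr10:88683024-88683273, minus strand: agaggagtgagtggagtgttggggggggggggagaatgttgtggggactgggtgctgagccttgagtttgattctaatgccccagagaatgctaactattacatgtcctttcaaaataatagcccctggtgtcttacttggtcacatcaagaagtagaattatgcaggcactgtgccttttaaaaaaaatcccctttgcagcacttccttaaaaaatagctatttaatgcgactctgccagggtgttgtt
Nr4a1, chr15:101266596-101266845, plus strand: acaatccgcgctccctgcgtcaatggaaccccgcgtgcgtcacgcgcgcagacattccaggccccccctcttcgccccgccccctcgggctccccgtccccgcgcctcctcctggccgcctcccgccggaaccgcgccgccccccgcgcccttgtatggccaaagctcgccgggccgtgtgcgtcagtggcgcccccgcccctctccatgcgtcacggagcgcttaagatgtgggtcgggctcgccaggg

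Treml4 and Il1b each hold 1 match, and the windows of Itgax, Spic and Nr4a1 hold none. Over the whole 300-base window of the promoter table, on either strand, TGGGAA was found in at least 1 promoter of 24 of the 98 called-lower genes with an entry (24.5%) and of 12 of the 44 called-higher genes (27.3%). The same share over all 27025 genes of the table was 28.3%. The longer form GTGGGAA, which contains the core, was found in 3 of 98 (3.06%) and 3 of 44 (6.82%) against 7.25% over all genes. The shares in the called genes thus lay at or under the share in all genes, and a match in such a window is only a description of letters.

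The rises were led by Emp1 and Pmp22, related membrane proteins of the PMP22 family. Entries for microRNA precursors, some with differences as large, were passed over here and among the falls, since their short length turns a few reads into many TPM. Emp1 stood at 18.6 and 17.7 TPM in the controls and at 141, 97.1, 122 and 99.8 TPM with antibodies, a log2 difference of 2.58 ± 0.13 (adjusted p = 2.2e-06). Pmp22 went from 1.35 and 1.85 TPM to 13.4, 9.70, 16.2 and 10.5 TPM (2.35 ± 0.18, adjusted p = 2.7e-05). Both genes showed wide gaps between the groups. Folr2, a folate receptor of tissue macrophages, rose from 7.06 and 10.6 TPM to 42.1, 28.5, 37.8 and 44.5 TPM, by 2.00 ± 0.18 (adjusted p = 5.6e-05). C3ar1, the receptor for the complement fragment C3a, rose from 80.8 and 77.1 TPM to 247, 239, 256 and 218 TPM, with the smallest error among the leading genes (1.59 ± 0.06, adjusted p = 6.5e-07). Adam8, a surface metalloprotease, rose by 1.85 and Itga6, the laminin-binding alpha6 integrin chain, by 1.75 on the log2 scale. Stab1, a scavenger receptor, went from 102 and 96.9 TPM to 282, 253, 297 and 251 TPM (1.44 ± 0.08, adjusted p = 3.6e-06). Cd36, a fatty acid and oxidised lipoprotein receptor, went from 84.5 and 61.9 TPM to 220, 185, 207 and 190 TPM (1.46 ± 0.11, adjusted p = 2.7e-05). Pf4, a chemokine of platelets and some macrophages, rose from 59.0 and 87.0 TPM to between 191 and 235 TPM, while 5 of the 7 platelet markers were under 1 TPM in every library. Syngr1 rose by 1.68, Fabp7, a fatty acid binding protein, by 1.61 and Olfml3 by 1.43, the last not called without control replicate 1 (adjusted p = 0.051).

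**Figure D1:**
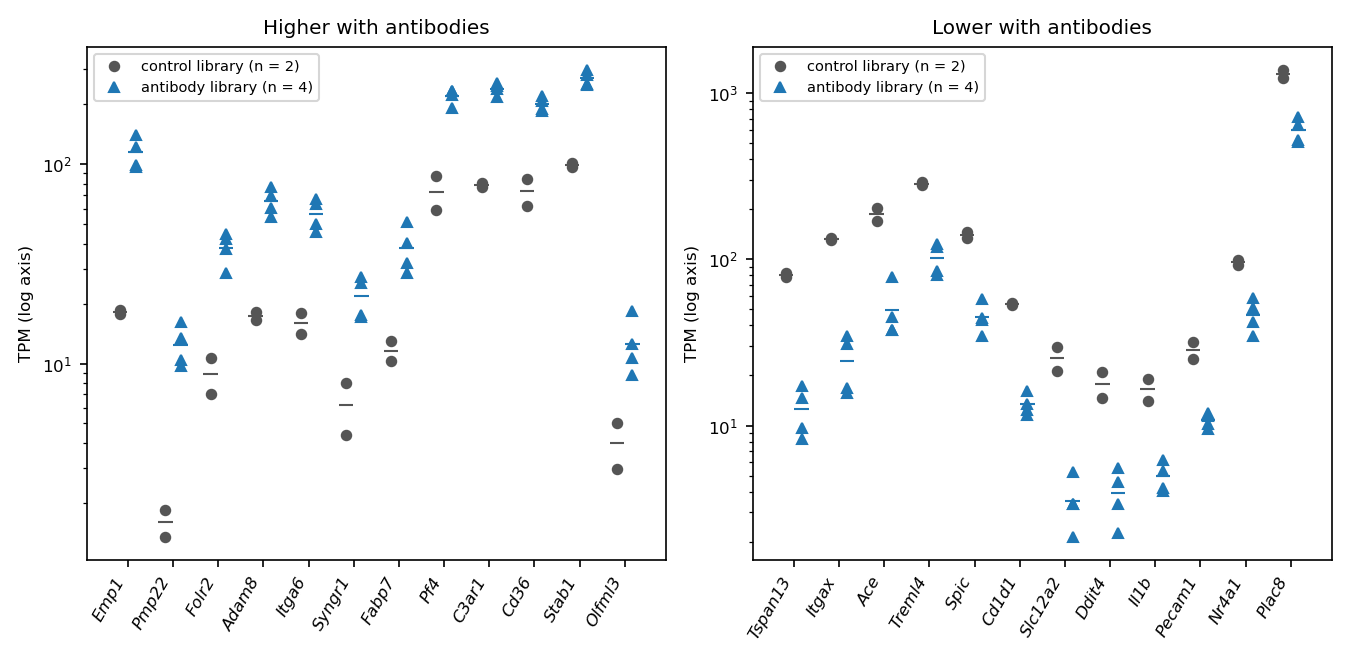
TPM on a log axis for 12 genes higher (left) and 12 lower (right) with antibodies; circles are the 2 control libraries, triangles the 4 antibody libraries, and short lines group means. All are calls whose groups do not overlap, so the separate ranges follow from the choice, as for Emp1 at 17.7 to 18.6 TPM against 97.1 to 141 TPM. The left genes are the 12 largest named rises, and the right genes were picked by hand. Genes highly expressed in hepatocytes were left out on the right, though their falls were among the largest. Their controls lay further apart, as for Mat1a at 171 and 61.3 TPM.

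In the Notch machinery itself no gene was called. Of 17 tested receptors, proteases, gamma-secretase subunits and modifiers, limma called 0 on TPM and 0 by voom on reads, and the median log2 difference was 0.05. At an unadjusted p below 0.05 in limma, 5 were higher and 3 lower. So were 1303 and 1354 of all 9885 genes, the background for each such count below with all libraries kept. Notch1 stood at 13.6 and 13.0 TPM in the controls and at 18.1, 18.0, 15.9 and 15.7 TPM with antibodies, above the controls in all 4 libraries but not past the threshold (0.33 ± 0.10, adjusted p = 0.067). Notch2 overlapped between the groups, at 53.3 and 40.1 TPM against 45.9 to 53.2 TPM (0.11 ± 0.12). Under the fold requirement, 2 members were higher and 2 lower with an adjusted p below 0.05. The higher ones were Adam17, an ADAM protease (0.31, adjusted p = 0.011), and Psen2, a gamma-secretase subunit, which went from 38.4 and 35.4 TPM to 49.4, 50.8, 47.5 and 47.0 TPM (0.39, adjusted p = 0.0022). The lower ones were Itch, a ubiquitin ligase that acts on Notch (-0.35, adjusted p = 0.0096), and Mfng, a glycosyltransferase that tunes the response to ligands, which went from 21.2 and 21.5 TPM to 13.1, 14.4, 13.8 and 13.7 TPM (-0.60 ± 0.13, adjusted p = 0.011). Lfng, the related Fringe enzyme, was at -0.37 (adjusted p = 0.057). Of 12 genes of the nuclear complex, with RBPJ, the Mastermind coactivators and the corepressors, 0 were called and 0 passed at any fold in limma or voom, 1 had an unadjusted p below 0.05 (Maml3), and their log2 differences ran from -0.36 to 0.17. Rbpj stood at 11.5 and 9.71 TPM against 11.1, 11.8, 10.96 and 14.2 TPM, and the groups overlapped.

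Of the ligands, only Jag1 was tested, since the others stayed at or below 0.894 TPM. Jag1 went from 0.474 and 0.396 TPM to 2.13, 1.54, 2.52 and 1.72 TPM, higher in all 4 antibody libraries, and its log2 difference of 1.04 ± 0.30 barely passed (adjusted p = 0.045). The call was lost when any 1 of the 6 libraries was left out (adjusted p = 0.050 to 0.15) and with a replicate block (adjusted p = 0.30). Dll4 in these macrophages stood at 0.894 and 0.436 TPM against 0.495, 0.532, 0.153 and 0.201 TPM, and Dll1 at 0.337 and 0.244 TPM against 0.080 to 0.249 TPM, so both targeted ligands were under the filter. With no filter their log2 differences were -0.31 ± 0.17 for Dll4 (adjusted p = 0.38 in limma) and -0.16 ± 0.17 for Dll1 (adjusted p = 0.69), and neither passed. Binding of the antibodies to ligand on other cells cannot be read from these libraries.

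The genes listed as Notch targets moved in mixed directions. Of 18 listed, 7 were tested, with a median log2 difference of -0.49. Of these 7, 1 was called lower (Nr4a1), where 1.40% of all genes were. Called higher were 0, with 1 higher at an unadjusted p below 0.05 and 0 by voom. Nr4a1 and Pou2f2 also stand on the list of nonclassical monocyte genes given further on. Pou2f2, an Oct factor, was lower in every antibody library, at 86.7 and 85.7 TPM against 52.6, 63.1, 55.7 and 51.9 TPM (-0.62 ± 0.08, adjusted p = 7.6e-04). Bcl2, the survival factor, stood at 7.53 and 6.17 TPM against 2.79, 3.87, 3.37 and 3.96 TPM (-0.81 ± 0.15, adjusted p = 0.0061). Ccnd1, cyclin D1, went the other way, at 50.7 and 61.7 TPM against 72.2, 82.9, 91.5 and 65.1 TPM (0.46 ± 0.12, adjusted p = 0.031). Myc and Hes6 overlapped between the groups, and Dtx4 did not pass (0.19, adjusted p = 0.19). Hes1 and Hey1 were too low for the filter and differed in opposite directions. Hes1, a repressor of the HES family, stood at 3.46 and 4.96 TPM (52 and 86 reads) in the controls and at 0.327, 1.65, 1.21 and 2.12 TPM (5, 26, 20 and 31 reads) with antibodies. All 4 antibody libraries were under both controls, and with no filter the log2 difference was -1.22 ± 0.36 (adjusted p = 0.084 in limma). Hey1, of the related HEY family, stood at 0.306 and 0.379 TPM (7 and 10 reads) against 1.81, 1.83, 3.03 and 2.02 TPM (42, 44, 76 and 45 reads). With no filter it passed as higher (1.22 ± 0.19, adjusted p = 0.0049). Nrarp, a feedback inhibitor of Notch, lay above both controls in all 4 antibody libraries without passing, at 0.672 and 0.486 TPM against 1.80, 0.889, 1.19 and 0.882 TPM (0.46 ± 0.23, adjusted p = 0.31).

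The series also holds bone marrow monocytes cultured for 48 h with DLL4 (2 libraries) or untreated (2), which share no library with the liver experiment. In those cultures 931 of 10234 tested genes were called higher with DLL4 (9.10%) and 1063 lower (10.4%). The antibody differences ran opposite to the culture differences. Of the 762 genes raised by DLL4 in culture that were tested in the liver, 45 were called lower with antibodies and 1 higher, with a median log2 difference of -0.29 against -0.01 over all genes. The exception was Ms4a7, a macrophage membrane protein. Of the 853 genes lowered by DLL4 in culture, 56 were called higher with antibodies and 0 lower, with a median of 0.33. In that list 31 genes were lower at an unadjusted p below 0.05, and limma-voom on reads called 8 lower. At any fold, 248 of the 762 were lower and 27 higher, and 276 of the 853 were higher and 6 lower. Over all genes tested, 6.13% were lower and 6.66% higher at any fold, and 1.40% were called lower and 0.678% higher. Counted from the other side, genes lowered by DLL4 made up 83.6% of the 67 higher calls and 8.63% of all genes tested. Genes raised by DLL4 made up 32.6% of the 138 lower calls and 7.71% of all genes tested. Of those 138 genes, 57 could be tested in culture, and the 45 are 78.9% of these.

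**Figure D2:**
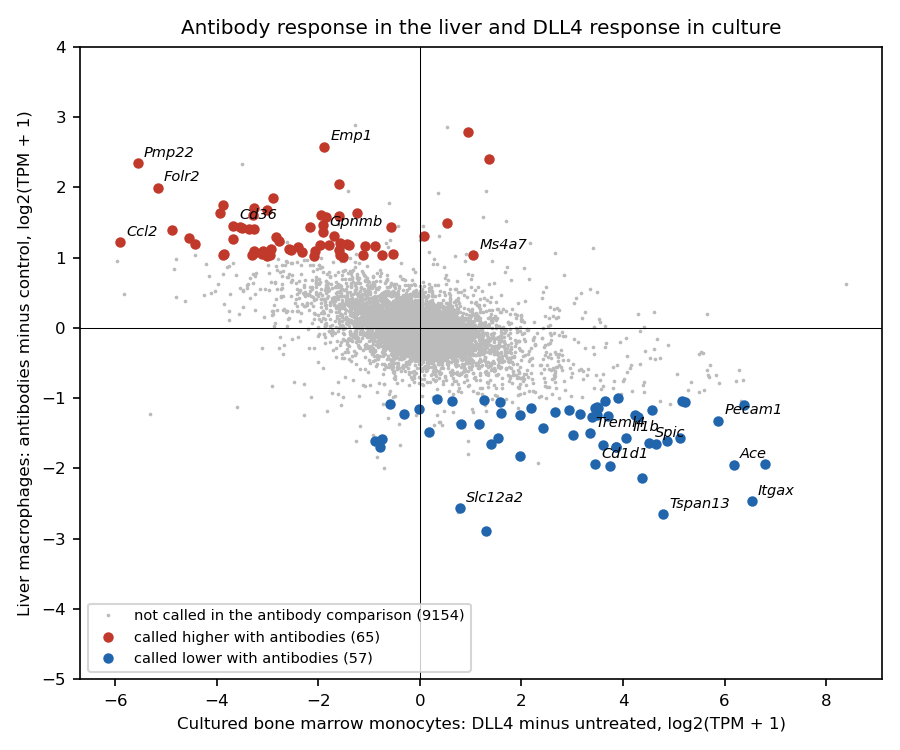
Each point is a gene tested in both tables, with its log2 difference with DLL4 in cultured marrow monocytes on the x axis and with antibodies in liver macrophages on the y axis; red and blue mark the 65 higher and 57 lower antibody calls. Red points lie mostly at the upper left and blue points at the lower right.

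The same genes can be followed in both systems. Itgax was at 3.03 and 3.18 TPM in untreated cultures and at 386 and 373 TPM with DLL4, a log2 difference of 6.53 ± 0.15. Tspan13 was at 10.2 and 9.20 TPM against 292 and 294 TPM there. Spic was at 4.61 and 3.72 TPM against 116 and 117 TPM, and Ace went from under 0.3 TPM to 84.0 and 84.1 TPM. These genes, which the antibodies lowered in the liver, were thus close to absent from untreated cultures or low in them. Among the genes that rose with antibodies, Pmp22 was at 404 and 383 TPM in untreated cultures and at 7.79 and 6.93 TPM with DLL4. Folr2 was at 145 and 139 TPM against 3.03 and 2.94 TPM. Emp1 was at 519 and 511 TPM against 138 and 138 TPM, and Ccl2, the monocyte chemokine, at 110 and 142 TPM against 1.07 and 1.13 TPM. In the liver Ccl2 rose from 20.5 and 19.0 TPM to 30.0, 54.5, 45.0 and 67.8 TPM (1.22 ± 0.23, adjusted p = 0.0059; 0.998 with a replicate block), so the gap to the controls was narrow in antibody replicate 1.

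The antibody values followed the size of the culture response. For the 61 genes raised by at least 4 on the log2 scale in culture, 17 were called lower with antibodies, 39 were lower at any fold, and their median was -0.73. For the 191 genes raised by 2 to 4, 20 were called lower and the median was -0.47, and for the 510 raised by 1 to 2, 8 were called lower and the median was -0.25. Among genes lowered in culture, the medians were 0.26 for the 633 lowered by 1 to 2, 0.56 for the 201 lowered by 2 to 4 and 0.92 for the 19 lowered by more. These bins describe values of genes and carry no test.

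Genes raised by DLL4 in culture did not all fall with the antibodies. C1qa, a chain of complement C1q that tissue macrophages secrete, was at 58.6 and 58.1 TPM against 1422 and 1459 TPM in culture, a log2 rise of 4.60. In the liver it stood at 790 and 927 TPM in the controls and at 1043, 935, 968 and 1044 TPM with antibodies (0.22 ± 0.07, adjusted p = 0.063), above the controls in all 4 libraries by a small margin. Cx3cr1, the fractalkine receptor, rose by 4.42 in culture and stood at 556 and 496 TPM against 533, 536, 555 and 496 TPM in the liver (0.01 ± 0.06, adjusted p = 0.93). The antibody libraries thus spread over the same levels as the 2 controls. Axl, a receptor for apoptotic cells, rose by 3.41 in culture and was at -0.27 ± 0.07 with antibodies (adjusted p = 0.021). Apoe, which encodes apolipoprotein E, rose by 1.14 in culture. It also rose in the liver, from 6276 and 6458 TPM to 10877, 9157, 10157 and 8065 TPM (0.58 ± 0.10, adjusted p = 0.0026), short of the fold.

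Among nonclassical monocyte genes, 3 of 12 tested were called lower (Ace, Treml4, Nr4a1) and 1 higher (Cd36), and 7 were lower at any fold. The list's median was -0.76, with 1.40% of all genes called lower and 6.13% lower at any fold. Besides the called members, Itgal, an integrin chain, stood at 664 and 542 TPM against 378, 440, 382 and 385 TPM (-0.60 ± 0.08, adjusted p = 9.1e-04), and Spn, CD43, at 30.2 and 29.4 TPM against 13.1, 20.9, 16.7 and 17.9 TPM (-0.78 ± 0.16, adjusted p = 0.0077). In both genes all antibody libraries were under the controls. Of the classical monocyte genes, 1 of 17 was called higher and 1 lower, where 0.678% and 1.40% of all genes were. F13a1, coagulation factor XIII A, rose from 178 and 120 TPM to 288, 257, 319 and 358 TPM (1.05 ± 0.15, adjusted p = 0.0010), which fell under the fold without control replicate 2 (0.77) or antibody replicate 4 (0.97). Plac8 fell from 1369 and 1230 TPM to 522, 641, 510 and 714 TPM (-1.13 ± 0.12, adjusted p = 1.7e-04). Ly6c2, which marks classical monocytes, overlapped between the groups, at 232 and 169 TPM against 140 to 230 TPM. Fn1, Vcan and Chil3 were high in control replicate 1 and antibody replicate 4 alike, as Fn1 shows at 339 and 99.4 TPM against 148, 105, 170 and 427 TPM, and none of the 3 passed.

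Of 16 tested Kupffer identity genes, 2 were called higher (Folr2, Fabp7) and 1 lower (Spic), with a median of -0.05, where 0.678% of all genes were called higher and 1.40% lower. Slc40a1, the iron exporter ferroportin, stood at 423 and 528 TPM in the controls and at 169, 299, 222 and 293 TPM with antibodies, below the controls in every library but just short of the fold (-0.98 ± 0.19, adjusted p = 0.0077), which it passed without control replicate 1 (-1.13) or antibody replicates 2 or 4 (-1.08 and -1.07). Cd163, the hemoglobin-haptoglobin receptor, stood at 27.4 and 23.3 TPM against 55.0, 47.2, 46.1 and 44.0 TPM (0.90 ± 0.10, adjusted p = 1.9e-04). Cd5l, a secreted macrophage protein, was at 21.9 and 24.6 TPM against 29.2, 34.4, 43.4 and 46.6 TPM (0.68 ± 0.20, adjusted p = 0.0499). Nr1h3, the liver X receptor alpha, Id3 and Id1 overlapped between the groups. Members of this one list therefore moved in both directions.

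Antigen presentation genes were lower together by less than 2-fold. Of 8 tested MHC class II genes, limma called 0 and voom 1, with a median of -0.69. In limma 7 were lower at any fold, where 6.13% of all genes were, and 7 at an unadjusted p below 0.05. H2-Ab1 stood at 1339 and 1357 TPM against 732, 764, 694 and 1061 TPM (-0.75 ± 0.13, adjusted p = 0.0039), and Ciita, the master regulator of these genes, at 15.9 and 17.8 TPM against 8.19, 7.47, 7.73 and 10.9 TPM (-0.91 ± 0.16, adjusted p = 0.0033). Antibody replicate 4 was the highest of its group for both and still under the controls. Without control replicate 1, 4 of the 8 were lower at any fold.

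Lipid-associated macrophage genes were higher as a group. Of 14 tested, 3 were called higher (Gpnmb, Lpl, Trem2) against 0.678% of all genes. At any fold 12 were higher, against 6.66% of all genes, and the median was 0.65. Gpnmb, a glycoprotein of lipid-laden macrophages, rose from 214 and 288 TPM to 753, 607, 650 and 565.1 TPM (1.36 ± 0.12, adjusted p = 5.4e-05). Lpl, lipoprotein lipase, rose from 393 and 375 TPM to 919, 1024, 1047 and 750 TPM (1.27 ± 0.11, adjusted p = 4.5e-05). Trem2, a lipid-sensing receptor, rose from 177 and 167 TPM to 398, 354, 364 and 311 TPM (1.04 ± 0.09, adjusted p = 4.5e-05). In all 3 the groups were well apart, and without antibody replicate 1 Trem2 was just short of the fold (0.99). Ctsd, the lysosomal protease cathepsin D, went from 1703 and 1829 TPM to 3262, 3139, 3381 and 3362 TPM, just under the fold (0.90 ± 0.04, adjusted p = 2.2e-06). Spp1 and Cd9 did not pass. Of 19 liver X receptor targets, 1 was called higher (Lpl) and 1 lower (Apoc1, which hepatocytes also make). The shares over all genes were 0.678% and 1.40%. Apoc1 overlapped between the groups, at 176 and 101 TPM against 49.4, 51.0, 57.1 and 105 TPM. Its call was lost without antibody replicate 1, 2 or 3 (adjusted p = 0.069 to 0.076) and with the 6 libraries alone (adjusted p = 0.095). Without control replicate 1 its difference was -0.68. Abca1, the cholesterol exporter, was higher under the fold (0.70 ± 0.09, adjusted p = 5.6e-04). Of 18 cholesterol synthesis genes limma called 0 and voom 1. An unadjusted p below 0.05 was reached by 1 higher and 5 lower, and by 1303 and 1354 of all 9885 genes.

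Smaller shifts ran through other lists. Of 20 interferon response genes, 10 were higher at any fold, where 6.66% of all genes were, with a median of 0.30. Without either control or antibody replicate 3 this count was 6. limma called 0 of them, as did voom, and 12 were higher and 0 lower at an unadjusted p below 0.05. Rsad2, an antiviral enzyme, stood at 37.2 and 33.8 TPM against 57.6, 65.9, 55.7 and 51.2 TPM (0.68 ± 0.10, adjusted p = 0.0011). Of 16 inflammatory genes, the chemokines Ccl2 and Ccl7 were called higher and Il1b lower, where 0.678% and 1.40% of all genes were. Without control replicate 2 the Ccl7 difference was 0.94, short of the fold. The Ccl7 call was also lost with the 6 libraries alone (adjusted p = 0.059) and with a replicate block (adjusted p = 0.082). Il1b, the interleukin-1 beta cytokine, stood at 19.1 and 14.1 TPM against 5.36, 4.24, 4.06 and 6.19 TPM (-1.56 ± 0.18, adjusted p = 3.0e-04), under the controls throughout. Of 16 TGF-beta and SMAD targets limma and voom called 0. At an unadjusted p below 0.05, 3 were higher and 3 lower, as were 1303 and 1354 of all 9885 genes. Tgfbi, an extracellular matrix protein, stood at 1175 and 1184 TPM against 666, 697, 598 and 646 TPM (-0.86 ± 0.06, adjusted p = 1.2e-05), and Tgfbr1, a TGF-beta receptor, at 201 and 164 TPM against 106.2, 128, 110 and 111 TPM (-0.68 ± 0.09, adjusted p = 7.6e-04). Of 12 cell cycle genes limma and voom called 0, with 1 at an unadjusted p below 0.05. The median was 0.04, but -0.50 without control replicate 1 and 0.56 without control replicate 2, so the controls disagreed on this list. Of 13 immediate early genes the only call was Nr4a1, lower, where 1.40% of all genes were. That call was already counted in other lists above.

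**Figure D3:**
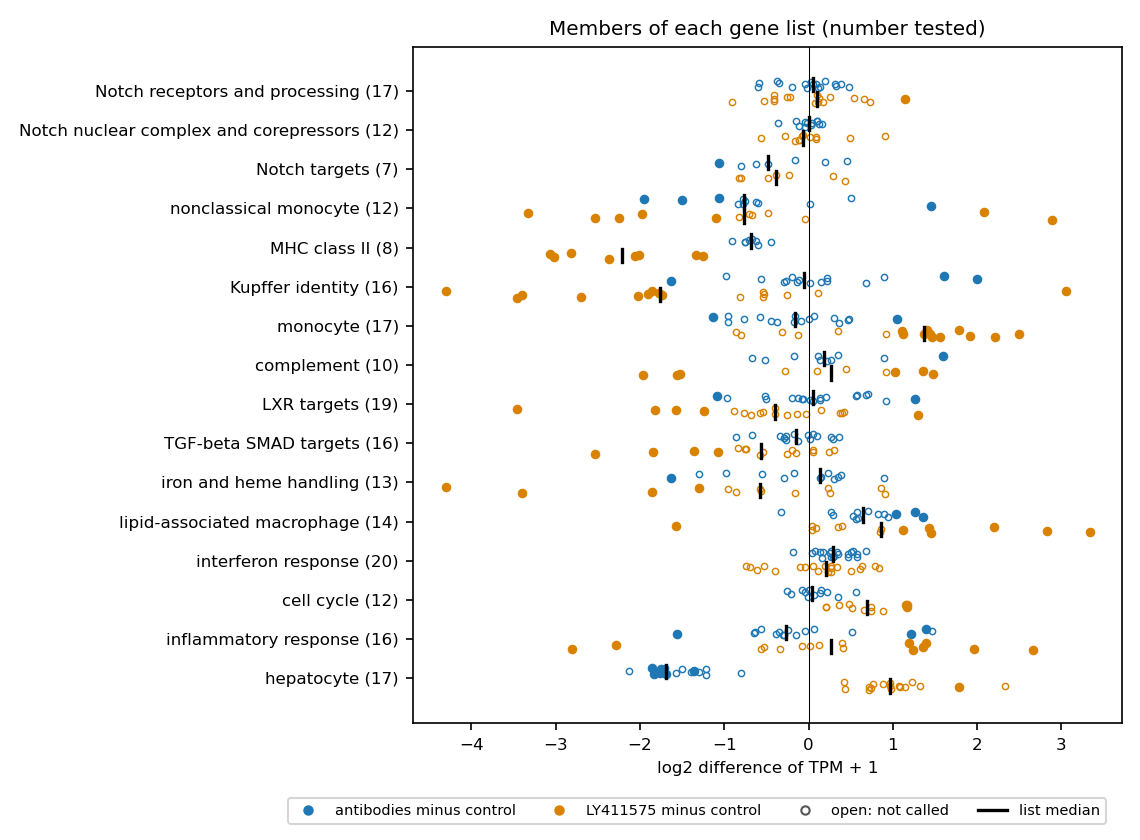
log2 difference of TPM + 1 for each tested member of the lists, with antibodies (blue) and with LY411575 (orange), each against its own control; filled points were called and black bars are list medians. Antibody medians of the lists drawn run from -1.69 for hepatocyte genes to 0.65 for lipid-associated macrophage genes.

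Part of the lower calls moved with RNA of hepatocytes. Of 17 hepatocyte genes tested, 8 were called lower, where 1.40% of all genes were, and 0 higher, with a median of -1.69. limma-voom on reads called 16. Summed over the list, they stood at 4799 and 2139 TPM in the controls and at 515, 1272, 703 and 2038 TPM with antibodies, and all 17 genes were detected. Alb, albumin, alone was at 2491 and 1055 TPM against 287, 659, 296 and 1028 TPM (-1.72 ± 0.47, adjusted p = 0.036). Control replicate 1 held the most and antibody replicate 4 nearly as much as control replicate 2. Without control replicate 1, 0 of the 17 were called in limma and 5 had an unadjusted p below 0.05, with a median of -1.11, and without antibody replicate 3, 1 was called and without antibody replicate 4, 16. The calls in hepatocyte genes therefore rest on those libraries, and the part of hepatocyte RNA in the other results was not tested.

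A count over all genes gives the extent. Of the 138 genes called lower, 54 (39.1%) stayed under 1 TPM in all 14 marrow and blood monocyte libraries of the series, against 0 of the 67 called higher and 2.11% of all genes tested. Of those 54, 41 were at least 1.5-fold higher in control replicate 1 than in control replicate 2. So were 67 of all 138 genes called lower, 3 of the 67 called higher and 570 of all 9885 genes tested. The pattern thus extended to genes outside the 54, such as Ehhadh, at 58.9 and 15.7 TPM in the controls. Without control replicate 1, 2 of the 54 were still called, and 42 of the other 84. Among the 84, Tspan13, Itgax, Ace, Treml4, Spic and Nr4a1 held 2 controls of like level, as given above. Of the genes with the largest falls, Apoa4, Mat1a, Ehhadh, Cyp3a11, Cyp8b1 and Slc27a2, all highly expressed in hepatocytes, had log2 differences of -2.43 to -2.02, and none of these 6 was called without control replicate 1 (adjusted p = 0.071 to 0.22). All of them but Slc27a2 also lost the call when the 6 libraries were fitted alone. Ear2, Ear3 and Ear12, called lower at -1.69 to -1.66, are near-identical copies whose reads cannot be assigned surely.

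**Figure D4:**
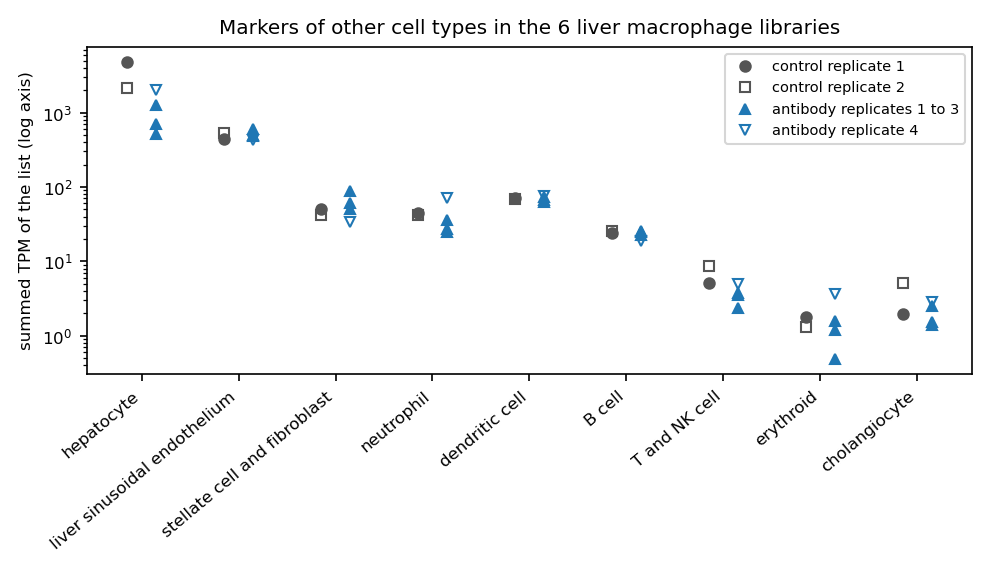
Summed TPM, on a log axis, of marker lists of other cell types in each of the 6 libraries; grey marks controls and blue antibody libraries. Hepatocyte markers run from 515 to 4799 TPM and differ most between libraries, while endothelial markers run from 434 to 601 TPM.

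Summed markers of other cell types varied less between the libraries. Sinusoidal endothelial markers summed to 439 and 534 TPM in the controls and to 434 to 601 TPM with antibodies. Fcgr2b, which macrophages express as well, stood at 276 and 293 TPM in the controls and at 233, 209, 209 and 287 TPM with antibodies. It made up most of the sum in both controls and in antibody replicate 4. In antibody replicates 1, 2 and 3 the other endothelial markers together held more than Fcgr2b. Of 15 endothelial markers tested, 12 were above 0 with a median of 0.62. At an unadjusted p below 0.05, 7 were higher and 2 lower, as were 1303 and 1354 of all 9885 genes. The only call was Pecam1, lower at -1.32, a gene that also rose with DLL4 in cultured monocytes. Without antibody replicate 4, 3 were called higher and 8 were higher at any fold, with a median of 0.81, and without control replicate 1 the median was 0.21. The part of endothelial RNA in the other results was not tested. Stellate cell markers summed to 34.2 to 88.1 TPM, neutrophil markers to 25.1 to 71.7 TPM, B cell markers to 18.9 to 25.8 TPM and T and NK cell markers to 2.39 to 8.66 TPM over the 6 libraries. Cd3d, Ly6g and Epcam were each under 1 TPM throughout. Of 11 dendritic cell markers 5 were under 1 TPM throughout, and the sums ran from 62.9 to 75.6 TPM.

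A second experiment in the same table blocked the pathway further down, with LY411575, an inhibitor of gamma-secretase, in female mice (2 controls, 3 treated). The agent differed together with the sex and the experiment, and these cannot be told apart. It gave 631 calls (6.38%), 369 genes higher (3.73%) and 262 lower (2.65%). Of the 67 genes higher with antibodies, 35 were also called higher with LY411575 (52.2% of the antibody calls and 9.49% of the LY411575 calls), and LY411575 gave the larger difference in 29 of these. Of the 138 lower, 40 were shared (29.0% and 15.3%), again larger with LY411575 in 32. Opposite calls were made for 4 of the higher genes and 23 of the lower ones. Of these 23, 4 were among the 84 that reached 1 TPM in at least 1 monocyte library. Of the 45 antibody-lowered genes that DLL4 raised in culture, 30 were also lowered by LY411575, and of the 56 raised ones 33 were also raised.

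The shared genes show the scale. Itgax stood at 170 and 166 TPM in the LY411575 controls and at 9.86, 8.98 and 9.99 TPM with the inhibitor, a log2 difference of -3.99 against -2.46 with antibodies. Emp1 stood at 41.8 and 47.9 TPM against 619, 625 and 648 TPM, 3.79 against 2.58. The difference between the 2 responses was itself tested in the same model and was called for both, at 1.53 ± 0.39 for Itgax (adjusted p = 0.025) and at -1.20 ± 0.19 for Emp1 (adjusted p = 0.0019). C3ar1 rose alike, by 1.59 and 1.36, with a difference of 0.23 ± 0.09 that did not pass (adjusted p = 0.14), and Treml4 fell by 1.50 and 1.97 with a difference of 0.47 (adjusted p = 0.21).

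Over all genes the difference between the responses was called for 532 (5.38%), 181 toward higher with antibodies (1.83%) and 351 toward lower (3.55%). For 287 of them only LY411575 had called a change and for 57 only the antibodies, 27 were called in both in the same direction and 27 in opposite directions, and 134 in neither. Toward higher, the named genes included several of settled tissue macrophages. Cd5l was at 105 and 96.0 TPM against 7.14, 11.2 and 6.85 TPM with LY411575, a fall of 3.46, where the antibodies gave 0.68, so that the responses differed by 4.14 ± 0.29 (adjusted p = 1.0e-05). Mrc1, the mannose receptor, differed by 3.50 ± 0.12 (adjusted p = 5.8e-08), from 0.94 with antibodies (1.08, and called, without control replicate 2) and -2.56 with LY411575. Cbr2, a carbonyl reductase, was the one of these called higher with antibodies, at 87.7 and 95.6 TPM against 229, 201, 240 and 248 TPM, and fell with LY411575 (1.31 and -2.09). Gas6, the ligand of the TAM receptors, differed by 3.20, Itga9 by 3.30 and Slc40a1 by 3.33, the last 2 being lower with both agents and far lower with LY411575. The levels of these genes also differed between the 2 control groups, as Cd5l shows at 21.9 and 24.6 TPM in male and 105 and 96.0 TPM in female controls. C1qa, Cx3cr1 and the MHC class II genes, little or less changed by antibodies, fell by 1.96, 2.54 and a median of 2.21 with LY411575.

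**Figure D5:**
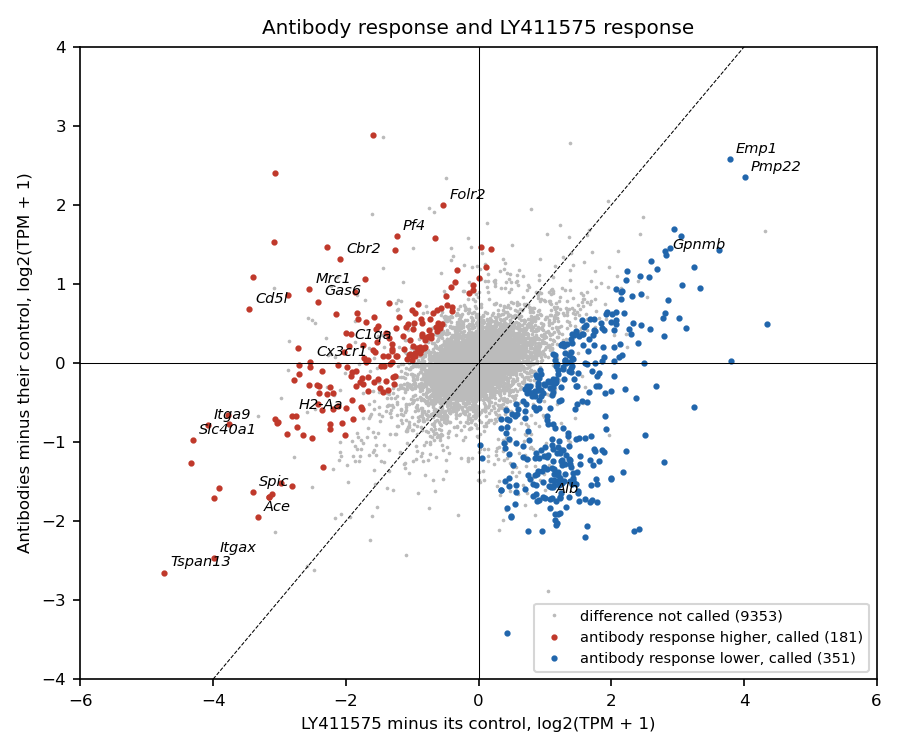
Each point is a gene, with its log2 difference with LY411575 on the x axis and with antibodies on the y axis; red and blue mark the 181 and 351 genes whose 2 responses differed by the interaction test, and the dashed line marks equal responses. Cd5l, Mrc1 and Cbr2 lie at the upper left, raised or near 0 with antibodies and low with LY411575.

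Toward lower, among genes whose antibody and control libraries did not overlap, the named genes were Cyp3a11, Mat1a, Cyp8b1, Cps1, Rdh7 and Hal, at -4.52 to -3.42, and all are enzymes of the liver. Hal differed from the others in that its 2 controls were alike, at 7.92 and 7.17 TPM, and that cultured monocytes held it at 14.98 and 15.03 TPM untreated. Il7r, a cytokine receptor whose antibody libraries overlapped the controls, differed by -3.86. It is known from lymphocytes, but marrow monocyte cultures held it at 154 and 152 TPM untreated and at 7.47 and 8.40 TPM with DLL4. Summed hepatocyte markers stood at 453 and 450 TPM in the LY411575 controls and at 948, 949 and 964 TPM with the inhibitor, opposite in direction to the antibody experiment. The part of hepatocyte RNA in these differences was not tested.

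The calls were also set against the normal course of refilling. In a table of other libraries, 2009 of 11373 genes were called higher in liver macrophages at 24 h than in blood monocytes (17.7%) and 1793 lower (15.8%). Of the 1487 higher ones tested here, out of 9885 in all, 99 were called lower with antibodies (6.66%, against 1.40% of all genes) and 42 higher (2.82%, against 0.678%), with a median of -0.07. Of the 1498 lower ones, 15 were called lower (1.00%) and 4 higher (0.267%), with a median of -0.01. The lower calls of the first list were 24 without control replicate 1, 63 without antibody replicate 1, 45 without antibody replicate 3 and 199 without antibody replicate 4, while its higher calls ran from 35 to 56. In the second list, 16 were called higher without control replicate 1 and 2 without control replicate 2, and 26 lower without antibody replicate 4. The 99 include hepatocyte genes, which are also higher in the liver libraries than in blood. Itgax, Slc12a2, Emp1 and Pmp22 were on the higher list, so genes of that list moved both ways. On the lower list, Cd244, a receptor of the SLAM family, fell by 1.65, Il1b by 1.56 and Amz1, a peptidase, by 1.26, and Slfn4 rose by 1.34. Dusp5, a MAP kinase phosphatase of the same list, fell by 1.37. Its call was lost without control replicate 1, with the 6 libraries alone (adjusted p = 0.051) and with a replicate block (adjusted p = 0.074).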

How the data were processed

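Poly(A) RNA of sorted cells was made into strand-marked libraries, per the labels' protocols. The authors deposited TPM. The submitters' processing notes name STAR, HOMER and the build mm10, with versions not given in the sources used here. HOMER's TPM are reads divided by length and depth, and 100% of low values came out as whole reads (up to 20 reads, within 0.1 read), which gave the depths and the count-based alternative.

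Here log2(TPM + 1) was fitted in limma 3.58.1 (R 4.3.3) with 1 mean for each of the 4 groups of the 11-library table, for genes reaching 4 TPM in no fewer than 2 libraries, with a trend in the variance. P-values were Benjamini-Hochberg adjusted over all 9885 genes, and a call needed an adjusted p below 0.05 and a 2-fold change. Errors are limma's standard errors, and fold changes are on the log2(TPM + 1) scale, which understates changes of low genes. The same fit on the marrow and time course tables gave the lists taken from them. Values were compared only within a table.

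Named genes were all tested Notch genes, the 12 largest non-overlapping calls in each direction with at least 10 TPM, up to 4 members per list, 6 per direction of the difference between responses and 5 per list from another table. A few named genes are not reported here. Members, lists and alternatives were chosen with earlier results of these data known. Groups follow the titles. The replicate pairs of the 6 libraries differed beyond counting noise (chi-square per degree of freedom 8.09 to 43.4). Alternatives were another pseudocount, no filter, quantile normalization, voom on recovered reads, the 6 libraries alone, a replicate block and each library left out. The steps were tested on simulated data. Promoters come from RefSeq on GRCm38.p6, the assembly behind mm10.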

Additional observations from a re-analysis of the deposited data

Results flagged for a closer look

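In 6 of 145 named genes, 1 of the 4 antibody libraries stood far from the other 3 on the log2 scale. Chance alone gives such a gap in about 1 gene in 20. The gap as a share of the group's range was 0.942 for Cd74, 0.856 for H2-Aa and 0.846 for H2-Eb1, where antibody replicate 4 was highest. It was 0.854 for Cyp3a11 and 0.899 for Dusp5, where antibody replicate 1 was lowest, and 0.850 for Ftl1, a ferritin chain, where antibody replicate 4 was lowest.

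The responses to the antibodies and to LY411575 differed by the interaction test in 46 named genes, given here as the antibody minus the LY411575 log2 difference. In genes of tissue macrophages the difference was 4.14 for Cd5l, 3.50 for Mrc1, 3.40 for Cbr2, 3.33 for Slc40a1, 3.30 for Itga9, 3.20 for Gas6, 2.84 for Pf4, 2.69 for Olfml3 and 2.53 for Folr2. It was 2.55 for Cx3cr1, 2.15 for Apoe, 2.16 for Axl, 1.25 for Stab1 and 1.04 for Itgb5. For the C1q chains it was 2.18 (C1qa), 1.71 (C1qb) and 1.79 (C1qc). For the MHC class II genes it was 2.15 (H2-Aa), 2.27 (H2-Ab1), 2.36 (H2-Eb1) and 1.77 (Cd74). Genes lowered by both agents, and more by LY411575, gave 2.08 (Tspan13), 1.76 (Spic), 1.53 (Itgax), 1.38 (Ace), 1.24 (Il1b) and 1.02 (Pecam1). Genes raised by both, and more by LY411575, gave -1.66 (Pmp22), -1.47 (Gpnmb), -1.45 (Fabp7), -1.43 (Cd36) and -1.20 (Emp1).

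Bcl2, lower with antibodies and not called with LY411575, gave -1.24. Genes highly expressed in hepatocytes gave -4.52 (Cyp3a11), -3.80 (Mat1a), -3.69 (Cyp8b1), -3.55 (Cps1), -3.45 (Rdh7), -3.42 (Hal), -3.21 (Slc27a2), -3.14 (Rbp4) and -2.26 (Fabp1). Genes from the marker lists of other cell types gave 1.75 (Cd79b), 1.53 (Rgs5), -1.84 (Mmp8) and -3.86 (Il7r). In these 4 the antibodies alone changed nothing past the threshold. Such genes are not limited to those cells. Untreated marrow monocyte cultures held Il7r at 154 and 152 TPM and Mmp8 at 613 and 590 TPM. With DLL4 these were 7.47 and 8.40 TPM and 101 and 93.2 TPM. Cd79b was at 6.65 and 6.77 TPM in untreated cultures and Rgs5 at 0.021 and 0 TPM.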

How the results depend on the processing

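The count of genes called lower in the antibody comparison (antibody against control: genes called lower, 138 as reported) depended on the processing, and that of genes called higher (67) less so. Fitting the 6 libraries alone gave 64 lower, limma-voom on recovered reads 265, and keeping only genes with at least 1 TPM in a monocyte library, chosen after seeing the data, 85. Calls higher were then 49.6%, 25.1% and 44.8% of all calls, where the reported share was 32.7%. Without the 2-fold minimum, 658 were higher and 606 lower. Leaving out 1 library at a time gave 56 to 84 higher and 57 to 260 lower, with 57 without control replicate 1, 76 without antibody replicate 3 and 260 without antibody replicate 4. For the antibody response minus LY411575 response (genes called higher 181, genes called lower 351), omissions gave 133 to 228 higher and 178 to 425 lower, with 178 without control replicate 1 and 199 and 190 without LY411575 control replicates 1 and 2. An arm left with 1 library is assumed to vary like the other groups. Genes raised by DLL4 in bone marrow monocytes (antibody calls higher) were 2 in place of 1 with a pseudocount of 0.25 and with quantile normalization. Genes lowered by DLL4 in bone marrow monocytes (antibody calls lower) were 1 in place of 0 with a pseudocount of 0.25, and genes lower in 24 h liver macrophages than in blood monocytes (antibody calls higher) 8 in place of 4. With 1 library left out, the genes raised by DLL4 gave 37 to 67 lower calls and those lowered by DLL4 46 to 63 higher calls, while lower calls in the latter were 7 without control replicate 2 and 9 without antibody replicate 4. Their cause was not tested.

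The title numbers 1 and 2 occur in both groups, but same-numbered libraries did not deviate together (correlation -0.11 and 0.05), and the column headers number them otherwise, so the numbers were not taken to pair the libraries. With a replicate block on the number, 62 genes were called higher and 107 lower, and the difference between responses gave 162 and 255. For single named genes, 13 alternatives gave 1870 values, of which 0 changed sign past the threshold, 83 lost the call and 9 gained one. Precision is limited by 2 control libraries, and genes of a few reads, such as Hes1 and Hey1, are read less surely.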
